A study of Mus musculus with 24 samples.

Results

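Hearts of male mice in which Sirt5 was deleted from cardiomyocytes (cSirt5-/-) were set against hearts of control mice, all taken 12 weeks after transverse aortic constriction (TAC), a clip around the aorta that overloads the left ventricle with pressure. The comparison uses 12 of the 24 whole-heart RNA libraries, 6 labelled as cSirt5-/- with TAC and 6 as control with TAC, chosen by these labels alone, and covers all 24239 genes of the deposited table. cSirt5-/- mice came from a Sirt5 line on a C57BL6J background crossed with mice hemizygote for Myh6-Cre, a recombinase driven in cardiomyocytes. Control mice carried the Sirt5 allele without the recombinase, so Cre and deletion occur in the same hearts and their effects cannot be told apart. The other 12 hearts, 6 cSirt5-/- Sham and 6 control Sham, were operated on without the clip. They served for the spread estimate and for a second comparison of the same genes. The age of the mice is not given in the sources used here.

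SIRT5 is a mitochondrial sirtuin that removes malonyl, succinyl and glutaryl groups from lysines, among them lysines of enzymes of fatty acid oxidation, the tricarboxylic acid cycle and the respiratory chain. It acts on proteins, and its loss is therefore read in RNA only through what the cell or the organ does in turn. Under lasting pressure overload cardiomyocytes grow, return to part of the fetal gene programme and rebuild sarcomere, Z-disc and matrix, while fibroblasts and immune cells join the remodelling.

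RNA came from whole hearts, in which fewer cells of a type and less RNA per cell cannot be told apart. The depth of the TAC libraries was 23.02 to 35.83 M reads, and mitochondrially encoded genes took 11.2 to 24.9% of them. Cardiomyocyte genes dominated all 12 libraries: 10 markers of these cells summed to 1480000 to 2764000 normalized counts in cSirt5-/- TAC and 1253000 to 2127000 in control TAC hearts. Ribosomal RNA took 23.4% of reads in the library labelled control TAC replicate 2 and 0.780 to 4.19% in the other 11. By the counts of genes nested on the other strand of a strongly expressed gene, relative to that gene (antisense ratio), the libraries formed 2 sets. No label names these sets. After TAC, replicates 5 and 6 of both genotypes were in set 1 and replicates 1 to 4 in set 2. The animal numbers in the labels fell into ranges that differed between the groups, and cSirt5-/- replicates 1 and 2 and control replicates 1 to 4 shared the lowest one. The middle range held cSirt5-/- replicates 3 to 6 and no control TAC heart. Control replicates 5 and 6 lay in the highest range, which held no cSirt5-/- TAC heart. In these hearts genotype and range cannot be told apart. Any 2 libraries of a TAC group differed by far more than counting noise, with a chi-square of at least 30 for each degree of freedom over 30 pairs.

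Sirt5 itself did not separate the groups. Its normalized count (reads divided by a size factor of the library) was 99.0, 886, 109.5, 499.1, 138.6 and 95.8 in cSirt5-/- TAC replicates 1 to 6, against 565, 697, 792, 796, 583 and 751 in control TAC hearts. The libraries labelled cSirt5-/- TAC replicate 2 and replicate 4 stood above and just under the control range, so that in these 2 the targeted gene went against the label. Cre acts in cardiomyocytes only, and the other cells of the heart keep Sirt5. The gene (ENSMUSG00000054021, chromosome 13 of GRCm39, 43518972 to 43548679) had a log2 fold change of −1.78 (SE 0.39, adjusted p = 0.00832) from limma. Without replicates 2 and 4 it was −2.65, a description only, since Sirt5 chose these libraries. Within library set 1 it was −2.51 and within set 2 −1.42, neither called (adjusted p = 0.142 and 0.159). Among Sham hearts it was 85.6 to 259 in cSirt5-/- and 388 to 807 in control, with no overlap. The remaining sirtuins, Sirt1 to Sirt4, Sirt6 and Sirt7, were not called, with log2 fold changes of −0.12 to 0.18.

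**Figure D1:**
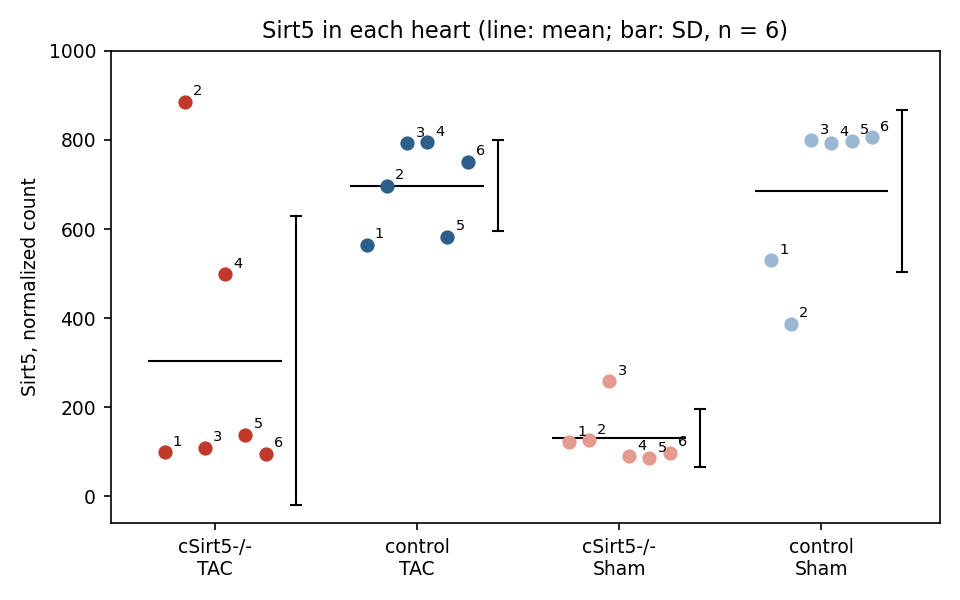
Normalized count of Sirt5 (vertical axis) in each of the 24 hearts, by genotype and surgery. Points are numbered by replicate, lines are means and bars are SD over 6 hearts. Replicates 2 and 4 of cSirt5-/- TAC lie at 886 and 499.1, the other 4 between 95.8 and 139.

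A gene was called when its Benjamini-Hochberg adjusted p from limma was under 0.1 and its change exceeded 1.5-fold on the log2(normalized count + 1) scale. After TAC 787 of 24239 genes were called (3.25%), 468 higher (1.93%) and 319 lower (1.32%) in cSirt5-/- hearts. In 202 of these 787 genes the 6 cSirt5-/- hearts did not overlap the 6 control hearts, against 2.95% of all genes. Left out together, the libraries labelled replicates 2 and 4 took the count to 282, with 168 higher (0.693%) and 114 lower (0.47%). Of these 282 genes, 250 (88.7%) were also among the 787, where they made up 31.8%. All 787 kept the sign of their change, and the median ratio of the fold change without both libraries to that with them was 0.903 on the log2 scale. The smaller fit reuses the other cSirt5-/- hearts and all control hearts, so kept signs and this ratio follow in part from the overlap. Replicate 4 alone moved the count by more than 1.5 times: without it 408 genes were called. Within set 2 of the libraries 992 genes were called, within set 1, with 2 hearts a group, 24, and with the range of animal numbers as a covariate 572. Only the lowest range held TAC hearts of both genotypes, so this covariate draws on Sham hearts too.

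Leaving out 1 heart at a time showed where each cSirt5-/- TAC library lay. Genes with a mean of at least 100 that were called without it placed the held-out heart between the control mean (0) and the mean of the other cSirt5-/- hearts (1). Replicates 1 to 6 lay at medians of 0.50, 0.87, 0.95, 1.31, 0.45 and 0.79. On the 172 genes called without both doubted libraries, replicate 2 lay at 0.89 and replicate 4 at 1.25, with 78.5% and 90.7% of these genes nearer the cSirt5-/- side. By these medians both libraries with control-like Sirt5 lay nearer the cSirt5-/- mean, and replicates 1 and 5, with low Sirt5, lay about midway. Replicates 2 and 4 took part in the genes and the mean that placed replicates 1 and 5. The positions of hearts with low and control-like Sirt5 are therefore not like for like. The trend of changes with transcript length described below was not removed here. Replicate 4 had the largest difference between long and short transcripts (−0.935), and the part of length in its position was not tested. The median SD of a gene across hearts was 0.244 on the log2 scale in cSirt5-/- TAC, 0.178 without replicate 4, and 0.176 in control TAC.

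Among genes with a mean of at least 100, 10 that rose with the smallest adjusted p and were called both with and without replicates 2 and 4 are given first, 9 of them with groups that did not overlap. Over all genes 2.95% had groups that did not overlap, and choice by small adjusted p favours such genes. Separation of the groups in the genes given here is therefore in part a result of the choice. Values are the lowest, median and highest normalized count of 6 hearts, and the fold changes are from limma. Ndnf, which encodes a secreted neurotrophic factor, had 379, 481 and 635 in cSirt5-/- TAC hearts, against 82.9, 126 and 248 in control TAC hearts. The groups did not overlap, and the log2 fold change was 1.86 (SE 0.19, adjusted p = 2.86e-06). Emilin2, an extracellular matrix glycoprotein, had 1141, 1382 and 1586 in cSirt5-/- TAC hearts, against 521, 649 and 948 in control TAC hearts, also without overlap, with a log2 fold change of 1.05 (SE 0.12, adjusted p = 1.13e-05). Gpt, the alanine aminotransferase that links alanine to pyruvate, had 659.8, 959 and 1245 in cSirt5-/- TAC hearts, against 306, 484 and 601 in control TAC hearts, and again no control heart reached the lowest cSirt5-/- heart. Its log2 fold change was 1.07 (SE 0.16, adjusted p = 0.000399). Pla2g5, a secreted phospholipase A2, had 348, 647 and 825 in cSirt5-/- TAC hearts, against 161, 214 and 348 in control TAC hearts. Here 1 cSirt5-/- heart lay within the control range, and the log2 fold change was 1.44 (SE 0.19, adjusted p = 0.000119).

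The other 6 of these genes all separated the 2 groups of hearts. Fbxl22, an F-box protein of the cardiac Z-disc, had 1993, 2204 and 2690 in cSirt5-/- TAC hearts, against 832, 1212 and 1530 in control TAC hearts, with a log2 fold change of 0.97 (SE 0.14, adjusted p = 0.000372). Bcam, a laminin-binding adhesion protein of basement membranes, had 6389, 7727 and 9736 in cSirt5-/- TAC hearts, against 4612, 4861 and 5201 in control TAC hearts, with a change of 0.69 (SE 0.10, adjusted p = 0.000338). Rgs6, which shortens signalling through inhibitory G proteins, had 439.6, 519 and 624 in cSirt5-/- TAC hearts, against 219, 256 and 349.7 in control TAC hearts, with a change of 0.94 (SE 0.14, adjusted p = 0.000426). Mov10l1, an RNA helicase, had a log2 fold change of 0.90 (SE 0.12, adjusted p = 0.000107), Abracl of 0.81 (SE 0.12, adjusted p = 0.000426) and the gene model 4631405J19Rik of 1.64 (SE 0.24, adjusted p = 0.000372). Without the trend of changes with transcript length described below, Abracl no longer exceeded the 1.5-fold limit (0.47, adjusted p = 0.0715), while the other 9 stayed called.

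Drd2, the dopamine D2 receptor, was singled out after its values were seen, since its level lies under the minimum mean of 100 for naming. It had 82.7, 102 and 129.8 in cSirt5-/- TAC hearts, against 4.5, 11.2 and 25.9 in control TAC hearts. Every cSirt5-/- heart, replicates 2 and 4 included, exceeded every control heart, with a log2 fold change of 2.97 (SE 0.33, adjusted p = 7.08e-06).

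In all 10 genes that fell by the same rule the groups stayed apart, which the choice by small adjusted p favours. Dmd, which encodes dystrophin, the link between cytoskeletal actin and the membrane of the muscle cell, had 645, 1151 and 1635 in cSirt5-/- TAC hearts, against 1757, 3631 and 4170 in control TAC hearts. Its log2 fold change of −1.55 (SE 0.21, adjusted p = 0.000131) was the largest of the 10. Nrap, an anchoring protein of the intercalated disc, had 23304, 25286 and 28097 in cSirt5-/- TAC hearts, against 35105, 45711 and 51213 in control TAC hearts, with a log2 fold change of −0.81 (SE 0.12, adjusted p = 0.000338). Mapt, the microtubule-binding protein tau, had 2279, 2428 and 2609 in cSirt5-/- TAC hearts, against 3331, 3834 and 4270 in control TAC hearts. Its log2 fold change was −0.67 (SE 0.07, adjusted p = 2.86e-06). Srrm4, a regulator of microexon splicing known from neurons, had 279, 422 and 512 in cSirt5-/- TAC hearts, against 731, 893 and 1262 in control TAC hearts, with a log2 fold change of −1.23 (SE 0.18, adjusted p = 0.000338).

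Kremen1, a receptor for Dickkopf inhibitors of Wnt signalling, had 4925, 5457 and 6096 in cSirt5-/- TAC hearts, against 7998, 8760 and 9606 in control TAC hearts, with a log2 fold change of −0.67 (SE 0.078, adjusted p = 1.3e-05). Setd7, a lysine methyltransferase, had 1631, 2152 and 2491 in cSirt5-/- TAC hearts, against 2930, 3415 and 4099 in control TAC hearts, with a change of −0.69 (SE 0.10, adjusted p = 0.000399). The last 4 were Golga4, a golgin of Golgi vesicle transport, at −0.70 (SE 0.095, adjusted p = 0.00013), Prune2 at −1.10 (SE 0.16, adjusted p = 0.000338), Ntng2, a netrin-G of the cell surface, at −0.93 (SE 0.14, adjusted p = 0.000338), and Ppip5k1, an inositol pyrophosphate kinase, at −0.69 (SE 0.10, adjusted p = 0.000409). Removal of the length trend left 5 of these 10 called and took Mapt to −0.50 (adjusted p = 0.000537), Kremen1 to −0.56 (adjusted p = 3.07e-05), Golga4 to −0.48 (adjusted p = 0.00179), Setd7 to −0.47 (adjusted p = 0.000864) and Ppip5k1 to −0.56 (adjusted p = 0.00105), under the 1.5-fold limit.

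**Figure D2:**
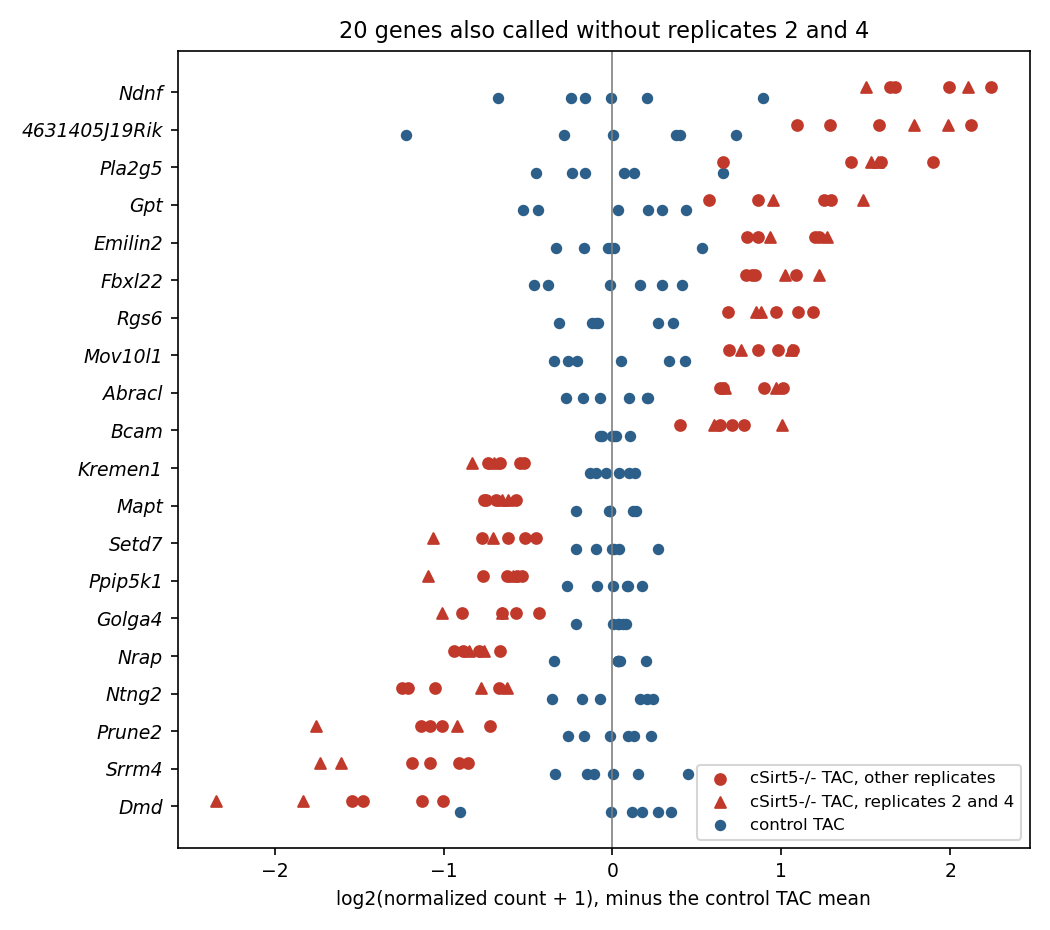
Each heart's log2(normalized count + 1) minus the control TAC mean (horizontal axis) for the 20 genes with the smallest adjusted p that were called with and without replicates 2 and 4, in 12 TAC hearts. Triangles mark replicates 2 and 4 of cSirt5-/- TAC. Both lie on the side of the other cSirt5-/- hearts in every row, replicate 4 often at the far end. Both were in the fit that ranked the genes, so their side follows in part from the choice.

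Among called genes with a mean of at least 100, 257 rose and 192 fell, and the largest changes were less even from heart to heart. Cntn2, a contactin that marks cells of the conduction system, had 265, 343 and 707 in cSirt5-/- TAC hearts, against 26.1, 90.3 and 261 in control TAC hearts, with a log2 fold change of 2.12 (SE 0.42, adjusted p = 0.00402) and no overlap. Cenpf, a kinetochore protein of dividing cells, had 231, 475 and 900.3 in cSirt5-/- TAC hearts, against 108, 120.4 and 227 in control TAC hearts, also without overlap, and a change of 1.67 (SE 0.32, adjusted p = 0.00307). Etfb, a subunit of the flavoprotein that passes electrons from fatty acid oxidation to the respiratory chain, had 154, 460.4 and 1201 in cSirt5-/- TAC hearts, against 120.3, 186 and 256 in control TAC hearts, with a change of 1.46 (SE 0.36, adjusted p = 0.0172). In Etfb 1 cSirt5-/- heart lay within the control range, and without replicates 2 and 4 the change was 1.09 (adjusted p = 0.154).

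Also among the 15 largest increases were Scd4, a fatty acid desaturase (1.52, SE 0.34, adjusted p = 0.00892), Lad1 (1.53, SE 0.35, adjusted p = 0.0113), Phkg1, the catalytic subunit of phosphorylase kinase in glycogen breakdown (1.29, SE 0.27, adjusted p = 0.00562), and Ifi205, an interferon-inducible gene (1.29, SE 0.26, adjusted p = 0.00522). Secreted proteins among them were Efemp1, a fibulin (1.32, SE 0.27, adjusted p = 0.0047), Bmper, which binds bone morphogenetic proteins (1.31, SE 0.27, adjusted p = 0.00594), Lgals3, galectin-3 of macrophages and fibrosis (1.27, SE 0.38, adjusted p = 0.0447), and Lcn2, an iron-carrier protein of inflammation (1.44, SE 0.51, adjusted p = 0.0888). Gm30735, a gene model, changed by 1.31 (SE 0.29, adjusted p = 0.00828). Gm30735 separated the groups, while the remaining genes overlapped in 1 to 5 cSirt5-/- hearts. Some calls hung on 1 heart, and the fold changes in parentheses are those without it: Lgals3 was not called without cSirt5-/- replicate 4 or control replicate 2 (1.02 to 1.10). Lcn2 lost its call without cSirt5-/- replicate 3, 4, 5 or 6 or control replicate 1, 2, 3, 4 or 6 (1.08 to 1.47).

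The largest decrease, in D430019H16Rik, was −2.04 (SE 0.65, adjusted p = 0.0571) with 3 cSirt5-/- hearts inside the control range. Myot, the Z-disc protein myotilin, had 1197, 1640 and 2239 in cSirt5-/- TAC hearts, against 1936, 5611 and 7889 in control TAC hearts, with 1 cSirt5-/- heart in the control range and a change of −1.55 (SE 0.24, adjusted p = 0.000494). Xirp2, an actin-binding Xin protein of the intercalated disc that rises under load, had 23515, 31488 and 56845 in cSirt5-/- TAC hearts, against 57014, 97848 and 138323 in control TAC hearts, with the groups just apart, and changed by −1.46 (SE 0.23, adjusted p = 0.000608). Hipk2, a nuclear kinase, had 354, 1022 and 1154 in cSirt5-/- TAC hearts, against 1605, 1886 and 2031 in control TAC hearts, without overlap, and changed by −1.15 (SE 0.23, adjusted p = 0.00498). The further decreases were Tbx15, a T-box factor (−1.65, SE 0.35, adjusted p = 0.0061), Slc24a2, a sodium, calcium and potassium exchanger (−1.60, SE 0.31, adjusted p = 0.00323), Nlrc3, an inhibitor of innate signalling (−1.52, SE 0.36, adjusted p = 0.0138), Nav3, a microtubule-associated protein (−1.30, SE 0.30, adjusted p = 0.0114), Klhl34 (−1.29, SE 0.29, adjusted p = 0.00888), and Polr3g, a subunit of RNA polymerase III (−1.21, SE 0.20, adjusted p = 0.000725). Slc24a2, Nav3 and Polr3g separated the groups. The call of D430019H16Rik was lost without cSirt5-/- replicate 2, 3 or 4 or control replicate 3, 4 or 6 (−2.04 to −1.70).

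The direction of change after TAC followed the length of the transcript. Genes with a mean of at least 100 were divided into 5 classes of near equal size by spliced length. In the shortest class (2187 genes, median 1416 bases) the median log2 fold change was 0.22, with 152 genes called higher and 9 lower. The next classes had 0.08, −0.02 and −0.10. In the longest class (2186 genes, median 7388 bases) it was −0.23, with 16 genes called higher and 114 lower. Over all genes with this mean the median was −0.01. Without replicates 2 and 4 the shortest and longest classes had 0.14 and −0.14, and without replicate 4 alone 0.16 and −0.15.

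Heart by heart, the difference between the longest and the shortest class, in log2 deviation from the mean of the 12 hearts, was −0.015, −0.215, −0.172, −0.935, 0.008 and −0.053 in cSirt5-/- TAC replicates 1 to 6, against 0.202, 0.254, 0.097, 0.224, 0.288 and 0.289 in control TAC hearts. Every cSirt5-/- heart lay under every control heart, and replicate 4 lay far below the rest. A two-sided exact permutation test over all labelings of 6 against 6 gave p = 0.00216, the smallest it can give, and adjusted p = 0.0108 over the 5 library properties compared, though this property was added after the values were seen. The properties of depth, mitochondrial share, ribosomal RNA share and antisense ratio each had an exact permutation p of 0.478 to 0.859, adjusted p = 0.859. When each library's smooth trend with length was removed, 522 genes were called, 260 higher (1.07%) and 262 lower (1.08%), and 366 of them were among the 787. The part of length in the other results was not tested beyond this removal.

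**Figure D3:**
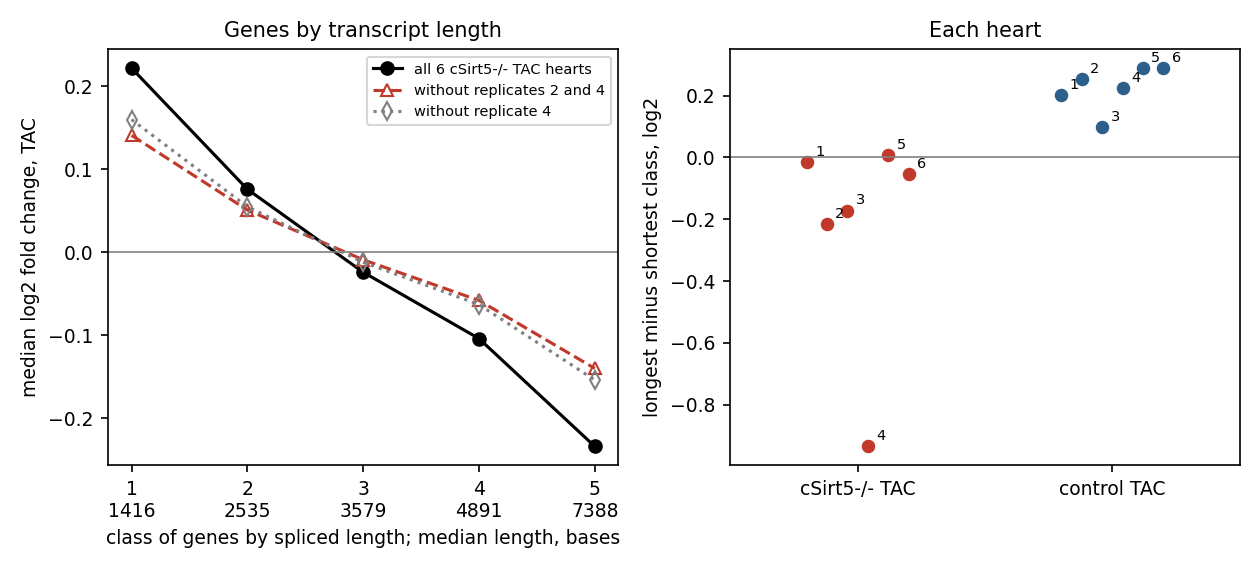
On the left, median log2 fold change after TAC (vertical axis) in 5 classes of genes by spliced length (horizontal axis, with the median length in bases). On the right, the longest minus the shortest class in each heart, numbered by replicate. Medians fall from 0.22 to −0.23 across the classes, and the 6 cSirt5-/- hearts lie below the 6 control hearts.

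Of 80 measured nuclear-encoded genes of the respiratory chain and ATP synthase, 21 rose in cSirt5-/- TAC hearts and none fell. The other 59 did not pass the test or the fold limit. For scale, 1.93% of all genes and 6.95% of the shortest length class were called higher. All 80 had a positive log2 fold change, with a median of 0.47, and 8 of the 10 cardiomyocyte markers also had positive changes (median 0.33). By complex, 7 of 36 rose in complex I, 0 of 4 in complex II, 4 of 10 in complex III with cytochrome c, 4 of 14 in complex IV and 6 of 16 in ATP synthase. The 13 protein genes of mitochondrial DNA had a median of −0.23, and none was called. These nuclear genes are short, with a median spliced length of 1090 bases. With the length trend removed 70 of the 80 were positive, their median was 0.20 and 3 were called, and without replicates 2 and 4 it was 0.33 and 1 was called, Cox6a1.

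Cox6a1, a subunit of cytochrome c oxidase, had 1580, 1958 and 3101 in cSirt5-/- TAC hearts, against 1023, 1189 and 1361 in control TAC hearts. The groups did not overlap, and the log2 fold change was 0.78 (SE 0.15, adjusted p = 0.00256). Uqcrh, the hinge protein of complex III, had 9581, 13030 and 19502 in cSirt5-/- TAC hearts, against 6426, 8478 and 9038 in control TAC hearts, with a change of 0.75 (SE 0.16, adjusted p = 0.00605), again with the groups apart. The complex I gene Ndufc2, also apart, with 3655, 4506 and 5634 in cSirt5-/- TAC hearts, against 2371, 3142 and 3485 in control TAC hearts, changed by 0.62 (SE 0.12, adjusted p = 0.00271). Cytochrome c itself, Cycs, had 6503, 7922 and 11998 in cSirt5-/- TAC hearts, against 4032, 5624 and 6520 in control TAC hearts, with a change of 0.62 (SE 0.14, adjusted p = 0.00832), with 1 cSirt5-/- heart within the control range. In ATP synthase Atp5d had 10235, 12184 and 18969 in cSirt5-/- TAC hearts, against 7210, 8331 and 9631 in control TAC hearts, with a change of 0.60 (SE 0.13, adjusted p = 0.00856), and Atp5e changed by 0.81 (SE 0.19, adjusted p = 0.0123). Replicate 4 was the highest library in Cox6a1, Uqcrh, Cycs and Atp5d. For Ndufc2 the call was lost without cSirt5-/- replicate 2 or 3 or control replicate 5 or 6 (0.55 to 0.57). Cycs was not called without cSirt5-/- replicate 3 or 4 or control replicate 5 or 6 (0.51 to 0.58). Atp5d lost its call without cSirt5-/- replicate 4 or control replicate 5 or 6 (0.49 to 0.57).

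Ndufb9 (0.81, SE 0.20, adjusted p = 0.0162), Ndufa2 (0.72, SE 0.17, adjusted p = 0.0113) and Ndufb7 (0.61, SE 0.15, adjusted p = 0.0146) also rose in complex I, and Uqcrb (0.64, SE 0.15, adjusted p = 0.0104) and Uqcr10 (0.59, SE 0.14, adjusted p = 0.0149) in complex III. Complex IV further held Cox7c (0.69, SE 0.18, adjusted p = 0.0242), Cox8b (0.68, SE 0.18, adjusted p = 0.025) and Cox6b1 (0.65, SE 0.16, adjusted p = 0.0149), and ATP synthase Atp5h (0.66, SE 0.17, adjusted p = 0.0206) and Atp5j2 (0.60, SE 0.17, adjusted p = 0.0307). Leaving out cSirt5-/- replicate 2 ended the calls of Ndufb7, Atp5h and Atp5j2 (0.55 to 0.58). Ndufb7, Uqcrb, Cox6b1, Atp5h and Atp5j2 were not called without cSirt5-/- replicate 3 (0.54 to 0.57). Leaving out cSirt5-/- replicate 4 ended the calls of Ndufb7, Uqcr10, Cox7c, Cox8b, Cox6b1 and Atp5j2 (0.43 to 0.55). All of these changes kept their sign. Ndufb7, Uqcrb, Uqcr10, Atp5h and Atp5j2 were not called without control replicate 5 (0.51 to 0.58). Leaving out control replicate 6 ended the calls of Ndufb7, Uqcr10 and Atp5j2 (0.51 to 0.56).

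Regulators of these genes were for the most part not called. Ppargc1a, a coactivator of mitochondrial biogenesis, had 1737, 2161 and 2860 in cSirt5-/- TAC hearts, against 1480, 2142 and 3136 in control TAC hearts, with all 6 cSirt5-/- hearts in the control range and a log2 fold change of 0.084 (SE 0.14, adjusted p = 0.81). Nrf1, the factor that binds many respiratory gene promoters, had a log2 fold change of −0.13 (SE 0.11, adjusted p = 0.555). Of 14 such regulators 1 was called, Ppara, a nuclear receptor for fatty acids, at −0.62 (SE 0.19, adjusted p = 0.0525). The call of Ppara was lost without cSirt5-/- replicate 2 or 4 or control replicate 2 or 4 (−0.58 to −0.42).

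Promoter letters of 3 of the genes that rose are shown because they hold the core motif of Nrf1, GCGCANGCG, searched on both strands from 250 bases before to 50 bases after the RefSeq start (build GRCm38.p6). Of the 80 genes 67 had a RefSeq promoter, and 22 of these (32.8%) held the motif in at least 1 window, as did 6 of the 18 matched genes that were called (33.3%) and 12.0% of 14245 measured genes. Each sequence reads 5′ to 3′ along its gene, with the motif in capitals. They are Cox6a1 (chr5:115348909-115349208, minus strand), Cycs (chr6:50566520-50566819, minus strand) and Atp5h (chr11:115419870-115420169, minus strand). A match is a description of the letters only.
Cox6a1: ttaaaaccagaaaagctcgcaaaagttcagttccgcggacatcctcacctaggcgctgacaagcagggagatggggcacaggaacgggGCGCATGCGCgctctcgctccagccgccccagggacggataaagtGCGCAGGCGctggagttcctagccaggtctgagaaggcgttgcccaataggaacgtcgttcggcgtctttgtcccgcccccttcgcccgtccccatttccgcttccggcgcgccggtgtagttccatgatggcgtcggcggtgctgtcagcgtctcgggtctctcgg
Cycs: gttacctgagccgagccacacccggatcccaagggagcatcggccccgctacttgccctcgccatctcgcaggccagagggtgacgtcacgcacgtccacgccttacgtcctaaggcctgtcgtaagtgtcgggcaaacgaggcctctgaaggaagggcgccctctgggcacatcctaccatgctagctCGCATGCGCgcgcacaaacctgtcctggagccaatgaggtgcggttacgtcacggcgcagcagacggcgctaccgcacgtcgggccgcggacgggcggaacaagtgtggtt
Atp5h: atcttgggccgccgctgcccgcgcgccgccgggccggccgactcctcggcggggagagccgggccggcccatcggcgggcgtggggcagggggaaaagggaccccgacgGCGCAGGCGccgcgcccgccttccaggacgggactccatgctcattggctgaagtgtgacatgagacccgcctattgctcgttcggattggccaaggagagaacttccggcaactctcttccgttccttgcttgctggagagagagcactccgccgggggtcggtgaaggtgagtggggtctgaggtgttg

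Ribosomal protein genes, likewise short, had positive changes too. Many of them, and many respiratory chain genes, have processed copies in the genome, so their counts are uncertain where the counting split reads between copies. Of 76 cytosolic ribosomal protein genes 12 rose and none fell, 75 had a positive change and the median was 0.42. For comparison, 1.93% of all genes and 6.95% of the shortest length class were called higher. Rps9 had 7569, 9273 and 12603 in cSirt5-/- TAC hearts, against 5325, 6029 and 6771 in control TAC hearts, without overlap, and changed by 0.64 (SE 0.13, adjusted p = 0.00642), and Rps20 (0.65, SE 0.16, adjusted p = 0.0146), Rpl26 (0.59, SE 0.15, adjusted p = 0.0194) and Rpl36a (0.72, SE 0.18, adjusted p = 0.0192) followed. All 4 separated the groups, and replicate 4 was the highest library in each. For Rps9 the call was lost without cSirt5-/- replicate 4 (0.55). Rps20 was not called without cSirt5-/- replicate 3 or 4 (0.56 to 0.57). Rpl26 lost its call without cSirt5-/- replicate 3 or 4 or control replicate 2 or 6 (0.43 to 0.57). The direction held in each of these fits. The call of Rpl36a was lost without cSirt5-/- replicate 4 (0.51). With the length trend removed 2 of the 76 were called and the median was 0.16, and without replicates 2 and 4 none was called (median 0.26). Of 76 mitochondrial ribosomal protein genes 3 rose, Mrpl34 (0.76, SE 0.15, adjusted p = 0.00402), Mrps18c (0.81, SE 0.21, adjusted p = 0.024) and Mrpl52 (0.64, SE 0.17, adjusted p = 0.0243), and the median was 0.25. Of these 76, 2 were called with the length trend removed. Beside the shares of all genes and of the shortest length class, 3 called genes of 76 say little of the list. For Mrpl52 the call was lost without cSirt5-/- replicate 4 (0.50).

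Few enzymes of the pathways that feed the respiratory chain were called. Of 28 genes of fatty acid uptake and oxidation 24 had a positive change (median 0.24), and Etfb and Acaa2, the thiolase of the last step of oxidation, rose. For scale, 1.93% of all genes and 6.95% of the shortest length class were called higher. Beside these shares 2 called genes of 28 say little of the list. Acaa2 had 12564, 17611 and 21259 in cSirt5-/- TAC hearts, against 5915, 11286 and 15424 in control TAC hearts, with 2 cSirt5-/- hearts in the control range, and changed by 0.65 (SE 0.16, adjusted p = 0.0192). Of 21 genes of the tricarboxylic acid cycle and pyruvate dehydrogenase (median 0.10), 21 of branched-chain amino acid oxidation (median 0.06) and 4 of ketone body use (median 0.04), none was called. In glycolysis 1 of 21 rose, the muscle enolase Eno3, with 27175, 31221 and 39940 in cSirt5-/- TAC hearts, against 13702, 21595 and 28561 in control TAC hearts, with a change of 0.62 (SE 0.13, adjusted p = 0.00578). With the length trend removed 2 of the 28 fatty acid genes and none of the glycolytic genes were called, Eno3 at 0.45 (adjusted p = 0.0226). Acaa2 was not called without cSirt5-/- replicate 4 or control replicate 5 (0.48 to 0.58). Eno3 lost its call without cSirt5-/- replicate 4 or control replicate 5 (0.50 to 0.56).

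Purine metabolism, which the study examined by metabolites, RNA and the adenosine kinase protein, had 3 called genes of 36, all higher, and a median of 0.11. For scale, 1.93% of all genes were called higher. Aprt, which salvages adenine to AMP, had 296, 342 and 569.8 in cSirt5-/- TAC hearts, against 191, 238 and 252 in control TAC hearts. The groups were apart and the log2 fold change was 0.67 (SE 0.17, adjusted p = 0.0212), and replicate 4 was the highest at 569.8. Pnp, which cleaves inosine and guanosine, had 136, 177 and 256 in cSirt5-/- TAC hearts, against 90.5, 129 and 154 in control TAC hearts, with a change of 0.62 (SE 0.18, adjusted p = 0.042), with 1 cSirt5-/- heart in the control range. Nt5c, a cytosolic nucleotidase, had 209, 261 and 424 in cSirt5-/- TAC hearts, against 126, 173 and 240.2 in control TAC hearts, with a change of 0.62 (SE 0.20, adjusted p = 0.0581). None of the 3 was called without replicates 2 and 4, Pnp at 0.53 (adjusted p = 0.197), Aprt at 0.49 (adjusted p = 0.177) and Nt5c at 0.45 (adjusted p = 0.324). Nor was any called once the length trend was removed, Pnp at 0.58 (adjusted p = 0.0706), Aprt at 0.38 (adjusted p = 0.131) and Nt5c at 0.29 (adjusted p = 0.374). The call of Pnp was lost without cSirt5-/- replicate 4 or 6 or control replicate 3 or 6 (0.53 to 0.56). For Aprt the call was lost without cSirt5-/- replicate 4 (0.54). Nt5c was not called without cSirt5-/- replicate 4 or control replicate 2 or 6 (0.49 to 0.55).

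Other purine and pyrimidine genes that the study names were not called after TAC. From the same sequencing, the study reports Nt5e and Pnp raised and Adk lowered in cSirt5-/- hearts after TAC. Its test for single genes was an ANOVA with Fisher's LSD test, not limma. It also found less adenosine kinase protein in cSirt5-/- hearts, which RNA does not measure. Adk, the adenosine kinase that returns adenosine to AMP, had 3248, 3798 and 4606 in cSirt5-/- TAC hearts, against 3047, 3602 and 4394 in control TAC hearts, with 5 cSirt5-/- hearts inside the control range and a log2 fold change of 0.04 (SE 0.089, adjusted p = 0.869). Nt5e, the ectoenzyme that forms adenosine from AMP, had 530.1, 680.3 and 947 in cSirt5-/- TAC hearts, against 426, 593 and 778 in control TAC hearts, with a log2 fold change of 0.23 (SE 0.15, adjusted p = 0.428). Hprt, which salvages hypoxanthine and guanine, had 1505, 1857 and 2374 in cSirt5-/- TAC hearts, against 1292, 1525 and 1611 in control TAC hearts, with a log2 fold change of 0.28 (SE 0.09, adjusted p = 0.0637), under the 1.5-fold limit. For the pyrimidine enzymes Dpyd and Upp1 the log2 fold changes were −0.37 (SE 0.21, adjusted p = 0.358) and 0.49 (SE 0.23, adjusted p = 0.227). None of 15 genes of pyrimidine metabolism was called after TAC. In Sham hearts the changes were 0.70 in Nt5e (adjusted p = 0.0193), −1.03 in Dpyd (adjusted p = 0.0152) and 0.87 in Upp1 (adjusted p = 0.0508), all called, and −0.35 in Adk (adjusted p = 0.0411), under the 1.5-fold limit.

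Antioxidant enzymes had 1 called gene of 22, a share near the 3.25% called among all genes, and a median of 0.17. Hmox1, the heme oxygenase induced by oxidative stress, had 289.6, 399 and 713 in cSirt5-/- TAC hearts, against 161, 264 and 411 in control TAC hearts, with a log2 fold change of 0.71 (SE 0.23, adjusted p = 0.0629), with 3 cSirt5-/- hearts in the control range. Hmox1 lost its call without cSirt5-/- replicate 4 or 6 or control replicate 1, 2 or 3 (0.56 to 0.67). Cat, the catalase of peroxisomes, had 5441, 5853 and 6368 in cSirt5-/- TAC hearts, against 6407, 7427 and 9044 in control TAC hearts. All cSirt5-/- hearts lay under all control hearts, and the log2 fold change of −0.35 (SE 0.081, adjusted p = 0.0123) was under the 1.5-fold limit. Txn1, thioredoxin, had 1466, 1756 and 2281 in cSirt5-/- TAC hearts, against 1206, 1282 and 1426 in control TAC hearts, apart in the other direction, with 0.43 (SE 0.098, adjusted p = 0.00954), also under the limit. With the length trend removed Txn1 was at 0.088 (adjusted p = 0.507) and Cat at −0.41 (adjusted p = 0.0043). Sod2, the mitochondrial superoxide dismutase, had 0.15 (SE 0.10, adjusted p = 0.453), and Prdx3, Gpx1 and Gpx4, which reduce peroxides, had 0.012 (SE 0.092, adjusted p = 0.969), 0.22 (SE 0.13, adjusted p = 0.372) and 0.082 (SE 0.14, adjusted p = 0.823).

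Several structural genes of the muscle cell fell, among them members of the load response. Of 14 genes of hypertrophy and the fetal programme 3 fell, against 1.32% of all genes, none rose and the median was −0.27. They were Xirp2, Rcan1, the calcineurin-regulated feedback inhibitor, with 2720, 5319 and 6875 in cSirt5-/- TAC hearts, against 5510, 8855 and 13063 in control TAC hearts, with a change of −0.87 (SE 0.22, adjusted p = 0.0208), and Fhl1, a LIM protein that responds to stretch, with 3909, 5618 and 7976 in cSirt5-/- TAC hearts, against 5728, 11462 and 14001 in control TAC hearts, with a change of −0.78 (SE 0.18, adjusted p = 0.0128). In Rcan1 and Fhl1 3 cSirt5-/- hearts each lay in the control range. The natriuretic peptide genes Nppa and Nppb were not called (−0.21 and −0.32), nor were Myh7, the slow myosin heavy chain (−1.02, adjusted p = 0.22), and Acta1, skeletal actin (−1.14, adjusted p = 0.125).

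Of 20 Z-disc and costamere genes 3 fell and 1 rose, with a median of −0.14. For scale, 1.32% of all genes were called lower and 1.93% higher, and 5.22% of the longest length class were called lower. Besides Myot, Synpo2l, an actin-binding Z-disc protein, had 5843, 8673 and 10784 in cSirt5-/- TAC hearts, against 10076, 16815 and 23473 in control TAC hearts, with a log2 fold change of −0.97 (SE 0.20, adjusted p = 0.00508), with 1 cSirt5-/- heart in the control range. Synm, the intermediate filament synemin, changed by −0.60 (SE 0.16, adjusted p = 0.0212). Tcap, telethonin, which caps titin, rose by 0.72 (SE 0.25, adjusted p = 0.0878). Of the 20, 2 were called with the length trend removed, Myot and Synpo2l. Of 17 sarcomere genes 3 fell and none rose, while the median was 0.18. The titin gene Ttn had 67835, 118598 and 134614 in cSirt5-/- TAC hearts, against 133163, 154549 and 264533 in control TAC hearts, and changed by −0.59 (SE 0.18, adjusted p = 0.05), Neb, nebulin, by −1.25 (SE 0.29, adjusted p = 0.0116), and Myom3, an M-band protein, by −0.94 (SE 0.21, adjusted p = 0.00887). These are long transcripts: with the length trend removed Ttn was at 0.016 (adjusted p = 0.964) and Neb at −0.79 (adjusted p = 0.123), and Myom3 stayed called at −0.81 (adjusted p = 0.0351). The call of Ttn was lost without cSirt5-/- replicate 4 or control replicate 2 (−0.46 to −0.45). For Synm the call was lost without cSirt5-/- replicate 4 or 6 or control replicate 5 or 6 (−0.56 to −0.47). Tcap was not called without cSirt5-/- replicate 3, 4 or 6 or control replicate 1, 2 or 5 (0.57 to 0.70).

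Around dystrophin, 2 of 13 genes fell and 1 rose, against 1.32% and 1.93% of all genes, with a median of −0.23. In the longest length class 5.22% were called lower. Dmd is described above and stayed called with the length trend removed (−1.18, adjusted p = 0.00015) and without replicates 2 and 4 (−1.29, adjusted p = 0.00186). Utrn, utrophin, the close relative of dystrophin, had 1123, 2475 and 2563 in cSirt5-/- TAC hearts, against 3006, 3198 and 3484 in control TAC hearts, with the groups apart, and changed by −0.60 (SE 0.15, adjusted p = 0.0203). It was not called with the length trend removed (−0.25, adjusted p = 0.106). Sntb1, a syntrophin that binds both, rose by 0.66 (SE 0.23, adjusted p = 0.0822) but 4 cSirt5-/- hearts lay in the control range. Utrn lost its call without cSirt5-/- replicate 4 or control replicate 2 (−0.58 to −0.42). The call of Sntb1 was lost without cSirt5-/- replicate 1, 3, 4 or 5 or control replicate 1, 2 or 6 (0.47 to 0.69).

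Several ion channel genes of repolarisation rose. Of 20 potassium, sodium and pacemaker channel genes 5 rose, against 1.93% of all genes, none fell, and the median was 0.02. Kcnh2, the channel of the rapid delayed rectifier current, had 1868, 2212 and 2613 in cSirt5-/- TAC hearts, against 1041, 1422 and 1761 in control TAC hearts, without overlap, and a log2 fold change of 0.66 (SE 0.11, adjusted p = 0.00127). Kcnq1, the slow delayed rectifier, had 831, 1451 and 1765 in cSirt5-/- TAC hearts, against 667, 852 and 1022 in control TAC hearts, and changed by 0.66 (SE 0.15, adjusted p = 0.0112), and its partner Kcne1 had 93, 215 and 296 in cSirt5-/- TAC hearts, against 34, 77.4 and 205 in control TAC hearts, and changed by 1.15 (SE 0.33, adjusted p = 0.0396). Kcnip2, the partner of the transient outward channels, had 3483, 4427 and 5418 in cSirt5-/- TAC hearts, against 1903, 2717 and 3890 in control TAC hearts, and changed by 0.68 (SE 0.15, adjusted p = 0.00892). After Sham none of the 20 was called higher and 5 lower in cSirt5-/- hearts. Without replicates 2 and 4, 6 of the 20 were called, and with the length trend removed 5. None of 17 calcium handling genes was called (median 0.01), and of 15 genes of adrenergic and cAMP signalling 1 rose, the receptor gene Adra1b (0.67, SE 0.22, adjusted p = 0.0637). For Kcnh2 the call was lost without control replicate 1 (0.57). Kcnip2 was not called without control replicate 5 (0.57). Kcnq1 lost its call without cSirt5-/- replicate 4 or 6 (0.58). The direction held in each of these fits. The call of Kcne1 was lost without cSirt5-/- replicate 4 or control replicate 6 (0.89 to 1.03). For Adra1b the call was lost without cSirt5-/- replicate 4 or 6 or control replicate 1, 5 or 6 (0.53 to 0.63).

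Cntn2 and Kcne1 are also genes of the conduction system, and a list of 14 such genes was drawn up after these values were seen. Of the 14, 5 rose, against 1.93% of all genes, and 13 had a positive change. Cntn2 and Kcne1 are counted among the 5, so this count follows in part from how the list was made. Scn10a, a sodium channel gene, had 29.2, 43.2 and 64.6 in cSirt5-/- TAC hearts, against 2.3, 6.8 and 27.9 in control TAC hearts, with a log2 fold change of 2.30 (SE 0.38, adjusted p = 0.000771), and Cpne5, a copine, had 8.7, 14.9 and 118 in cSirt5-/- TAC hearts, against 1.1, 3.6 and 6.6 in control TAC hearts, with a log2 fold change of 2.30 (SE 0.65, adjusted p = 0.0337). In both the groups did not overlap, at low counts. Cpne5 was not called without cSirt5-/- replicate 4 (1.81). The transcription factors Tbx3 (−0.088, SE 0.17, adjusted p = 0.843), Tbx5 (0.048, SE 0.17, adjusted p = 0.921), Irx3 (0.17, SE 0.16, adjusted p = 0.606), Irx5 (0.15, SE 0.20, adjusted p = 0.748) and Etv1 (0.22, SE 0.16, adjusted p = 0.489), the pacemaker channel Hcn4 (0.22, SE 0.23, adjusted p = 0.678), the connexin Gja5 (0.17, SE 0.14, adjusted p = 0.539) and the calcium channel subunit Cacna2d2 (0.72, SE 0.39, adjusted p = 0.312) were not called, nor was Nkx2-5 (0.32, SE 0.11, adjusted p = 0.0854), under the fold limit.

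Few matrix genes were called. None of 19 collagen genes was called (median 0.03). Of 30 matricellular and matrix-modifying genes 1 fell, Ccn1, a secreted integrin ligand induced by stretch, with 1422, 1579 and 2026 in cSirt5-/- TAC hearts, against 2254, 3031 and 3744 in control TAC hearts, no overlap and a log2 fold change of −0.86 (SE 0.17, adjusted p = 0.00327). Of 18 genes of TGF-beta signalling 1 fell, Tgfb2 (−0.71, SE 0.25, adjusted p = 0.0872), with 5 cSirt5-/- hearts in the control range. After removal of the length trend 1 collagen gene and 2 matricellular genes were called, and no gene of TGF-beta signalling. Single genes of the stress lists were called: Asns, asparagine synthetase of the integrated stress response (15 genes, median 0.34), rose by 0.80 (SE 0.25, adjusted p = 0.0504), and Ier3 of the immediate early genes (12 genes, median −0.09) by 0.68 (SE 0.24, adjusted p = 0.0848). None of 16 heat shock and chaperone genes (median 0.18), 28 proteasome genes (0.16), 11 genes of creatine kinase and adenine nucleotide exchange (0.36) or 16 cell cycle genes (0.26) was called. Against 3.25% of all genes, 1 called gene in a list of 12 to 30 says little of the list. Tgfb2 lost its call without cSirt5-/- replicate 2, 3, 4 or 6 or control replicate 1, 3, 5 or 6 (−0.73 to −0.46). The call of Asns was lost without cSirt5-/- replicate 2 or control replicate 2 or 4 (0.62 to 0.72). For Ier3 the call was lost without cSirt5-/- replicate 4 or 6 or control replicate 2, 3, 4 or 6 (0.52 to 0.68).

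Of 16 clock genes 2 fell and 1 rose, against 1.32% and 1.93% of all genes. In clock genes 2 control hearts stood apart. Arntl, which encodes BMAL1, the activator of the clock, was 227, 180, 34.5, 67.5, 131 and 37.0 in cSirt5-/- TAC replicates 1 to 6, against 599, 726, 276, 152, 376 and 252 in control TAC hearts. Its log2 fold change was −1.96 (SE 0.44, adjusted p = 0.00893), and −1.50 (adjusted p = 0.0806) without control replicates 1 and 2. Dbp, an output gene that BMAL1 drives, had 2524, 3507 and 5749 in cSirt5-/- TAC hearts, against 403.7, 2495 and 3545 in control TAC hearts. Control replicates 1 and 2 held 448.7 and 403.7, and without them the change was 0.26 (adjusted p = 0.643) in place of 1.19 (SE 0.41, adjusted p = 0.081). These 2 hearts also had the lowest Nr1d1 (522 and 512, against 2975 to 4941 in the other control TAC hearts) and the highest Nfil3 (1186 and 1132, against 207 to 220.2). Clock, the partner of BMAL1, changed by −0.61 (SE 0.16, adjusted p = 0.0221), and by −0.32 (adjusted p = 0.1) with the length trend removed. Clock was not called without cSirt5-/- replicate 4 or control replicate 1 or 2 (−0.58 to −0.44). Dbp lost its call without cSirt5-/- replicate 3, 4 or 6 or control replicate 1 or 2 (0.80 to 1.14). The time of day of collection is not given in the sources used here, and its part was not tested.

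Among immune genes, some of antigen presentation and macrophages rose. Of 7 MHC class II genes 5 rose (median 0.68), against 1.93% of all genes. Cd74, the invariant chain, had 2454, 3239 and 5001 in cSirt5-/- TAC hearts, against 1227, 2225 and 2694 in control TAC hearts, and changed by 0.74 (SE 0.20, adjusted p = 0.0308), H2-Eb1 by 0.73 (SE 0.19, adjusted p = 0.0203), H2-Ab1 by 0.68 (SE 0.20, adjusted p = 0.0467) and H2-DMb1 by 0.68 (SE 0.22, adjusted p = 0.0669). Of 10 macrophage markers 2 rose, the lysozyme gene Lyz2 with 5129, 6544 and 8173 in cSirt5-/- TAC hearts, against 3090, 4487 and 5502 in control TAC hearts, with a change of 0.62 (SE 0.17, adjusted p = 0.0289), and Cd68 (0.66, SE 0.23, adjusted p = 0.0852), and all 10 had a positive change (median 0.49). Summed, the 10 markers held 14570 to 21890 normalized counts in cSirt5-/- TAC and 8211 to 15270 in control TAC hearts. No gene of either list was called without replicates 2 and 4, though the medians were 0.64 and 0.45. None of the MHC class II genes was called with the length trend removed (median 0.46, Cd74 at 0.52, adjusted p = 0.168), and 1 of the macrophage markers. The part of macrophage number in the MHC class II values was not tested. Plac8 was the called gene of 6 monocyte and neutrophil markers (1.67, SE 0.50, adjusted p = 0.0452), at low counts, and Rsad2 fell among 14 interferon-stimulated genes (−0.68, SE 0.20, adjusted p = 0.0457). The call of H2-Ab1 was lost without cSirt5-/- replicate 3 or control replicate 2 or 3 (0.55 to 0.61). For H2-DMb1 the call was lost without cSirt5-/- replicate 3, 4 or 6 or control replicate 1, 2 or 3 (0.56 to 0.67). Lyz2 was not called without cSirt5-/- replicate 3 or 4 or control replicate 2 or 3 (0.52 to 0.57). The direction held in each of these fits. Cd68 lost its call without cSirt5-/- replicate 4 or 6 or control replicate 1, 2, 3 or 4 (0.44 to 0.66). The call of Plac8 was lost without cSirt5-/- replicate 3 or 4 (1.43 to 1.60). For Rsad2 the call was lost without cSirt5-/- replicate 1 or control replicate 1 (−0.57 to −0.54).

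Markers of other cell types moved as follows. None of the 8 fibroblast markers was called (median 0.06), and of 7 myofibroblast and 8 pericyte and smooth muscle markers only Acta2, smooth muscle actin, was, which rose by 0.86 (SE 0.26, adjusted p = 0.0426). The other genes of both lists all had negative changes, with medians of −0.56 over the myofibroblast list and −0.15 over the pericyte and smooth muscle list. Of 8 endothelial markers Kdr, the VEGF receptor, fell, with −0.62 (SE 0.18, adjusted p = 0.0406), and of 5 lymphatic markers Prox1, with −0.73 (SE 0.21, adjusted p = 0.0398). Of 7 atrial markers Stard10 rose by 0.86 (SE 0.22, adjusted p = 0.0179). Beside the 3.25% called among all genes, 1 called gene in a list of 5 to 8 says little of the list. The median of the atrial list was 0.864 after TAC, with 5 of 7 positive, and 3.1 after Sham, with 2 called higher. Without cSirt5-/- replicate 4 the TAC median was 0.29, and without control replicates 1 and 2 it was 0.555. Summed, these markers held 34400 to 104900 normalized counts (median 55120) in cSirt5-/- TAC and 20910 to 137900 (median 67370) in control TAC hearts. The part of atrial tissue in other values was not tested. Acta2 was not called without cSirt5-/- replicate 4 or control replicate 4 or 6 (0.70 to 0.80). Kdr lost its call without cSirt5-/- replicate 4 or 6 or control replicate 2 (−0.56 to −0.42). The call of Prox1 was lost without cSirt5-/- replicate 4 or control replicate 6 (−0.65 to −0.53). No marker of endocardial, T and NK, B, erythroid, adipocyte, Schwann, mesothelial, skeletal muscle, lung or cartilage cells was called. Adipocyte markers summed to 4.35 to 661.6 normalized counts in cSirt5-/- TAC and 0 to 194 in control TAC hearts.

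**Figure D4:**
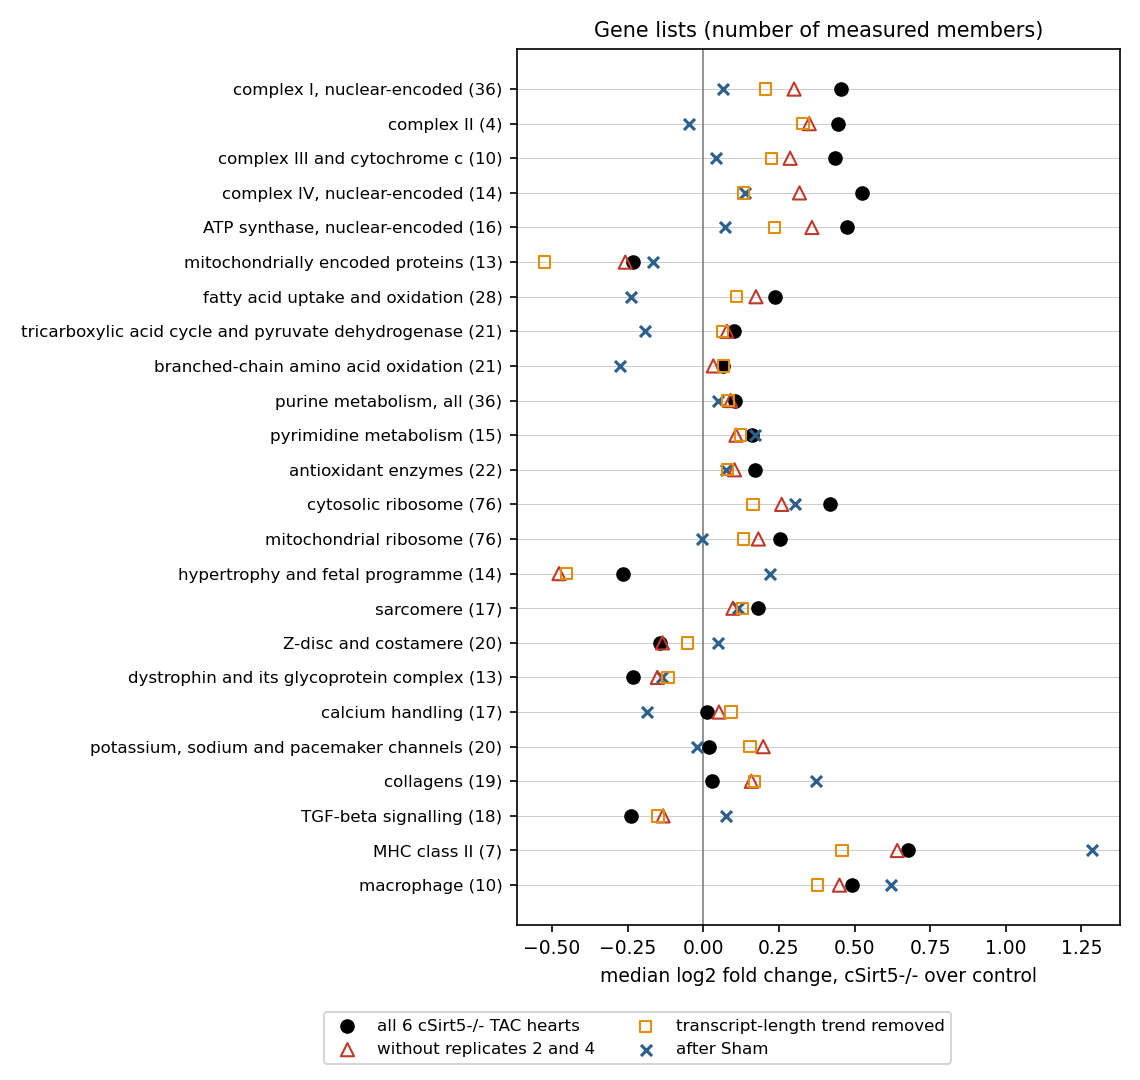
Median log2 fold change of cSirt5-/- over control hearts (horizontal axis) for gene lists, with the number of measured genes in brackets. Filled circles use all 6 cSirt5-/- TAC hearts, triangles leave out replicates 2 and 4, squares have the transcript-length trend removed and crosses show the Sham comparison. The respiratory complexes lie at 0.44 to 0.53 as circles, 0.29 to 0.36 as triangles and 0.13 to 0.33 as squares.

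In Sham hearts the same comparison of genotypes called 491 genes (2.03%). It sets no TAC heart against another, though its error rests on the spread shared by all 24 hearts. Of the 787 genes called after TAC, 94 (11.9%) were called in the same direction after Sham, where they were 19.1% of the calls, 68 higher and 26 lower, and 2 were called in opposite directions. The 787 genes had the same sign after both surgeries in 79.7%, against 60.7% of all genes. Their median size of change was 0.865 after TAC, the comparison that chose them, and 0.347 after Sham on the log2 scale. The difference between long and short transcripts described above was −0.425 to 0.134 in cSirt5-/- Sham hearts and −0.177 to 0.232 in control Sham hearts. The part of length in the shared signs was not tested.

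Ndnf, Dmd, Emilin2 and Srrm4 belonged to the genes called after both. Their log2 fold changes after Sham were 1.57 (adjusted p = 0.000205), −1.40 (adjusted p = 0.00114), 0.73 (adjusted p = 0.0025) and −0.91 (adjusted p = 0.00933). All 7 MHC class II genes were called higher after Sham, with a median of 1.29. The respiratory chain had a Sham median of 0.06 with 1 called gene, and fatty acid oxidation one of −0.24. Hypertrophy genes had a Sham median of 0.22 with 3 higher.

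In the interaction term of limma the genotype effect after TAC differed from that after Sham in 23 of 24239 genes at adjusted p under 0.1, of which 22 (0.0908%) also passed the 1.5-fold limit. The 12 of the 23 that were called after TAC follow, 11 of them past that limit and Mapt under it. In Drd2 the change after Sham was 0.48 and the difference 2.49 (adjusted p = 0.029). Pla2g5 had −0.005 after Sham (difference 1.45, adjusted p = 0.029), Gpt −0.21 (difference 1.28, adjusted p = 0.029) and Mapt −0.14 (difference −0.53, adjusted p = 0.029). Pde8a, a cAMP phosphodiesterase, had 624, 751 and 961 in cSirt5-/- TAC hearts, against 1163, 1455 and 1699 in control TAC hearts, without overlap, a change of −0.90 (SE 0.14, adjusted p = 0.000426) and a difference from Sham of −1.03 (adjusted p = 0.029). Fbp2, the muscle fructose bisphosphatase, had 306, 479 and 576 in cSirt5-/- TAC hearts, against 99.8, 203 and 329.5 in control TAC hearts, with a change of 1.12 (SE 0.21, adjusted p = 0.00321) and a difference of 1.47 (adjusted p = 0.0658). Itgb1bp2, the muscle chaperone melusin, which binds integrin, had 3753, 4810 and 5452 in cSirt5-/- TAC hearts, against 2130, 2942 and 3438 in control TAC hearts, without overlap, and changed by 0.74 (SE 0.12, adjusted p = 0.000528), with a difference of 0.75 (adjusted p = 0.0957). Synpo2l differed by −1.35 (adjusted p = 0.0658), having 0.38 after Sham. The last 4 were Slc26a6, an anion exchanger of the cardiac membrane (0.60, SE 0.17, adjusted p = 0.0397), Prr33 (0.77, SE 0.20, adjusted p = 0.0199), Snrpn, a splicing ribonucleoprotein gene that overlaps Snurf (0.59, SE 0.12, adjusted p = 0.00438), and Gm31663 (0.70, SE 0.24, adjusted p = 0.0878), all higher after TAC, with −0.57, −0.87, −0.38 and −1.18 after Sham. For Slc26a6 the call was lost without cSirt5-/- replicate 1, 2 or 4 or control replicate 5 or 6 (0.48 to 0.57). Snrpn was not called without cSirt5-/- replicate 2, 4 or 6 or control replicate 1, 2, 5 or 6 (0.53 to 0.58). Gm31663 lost its call without cSirt5-/- replicate 2, 3, 4, 5 or 6 or control replicate 1, 4, 5 or 6 (0.44 to 0.73).

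**Figure D5:**
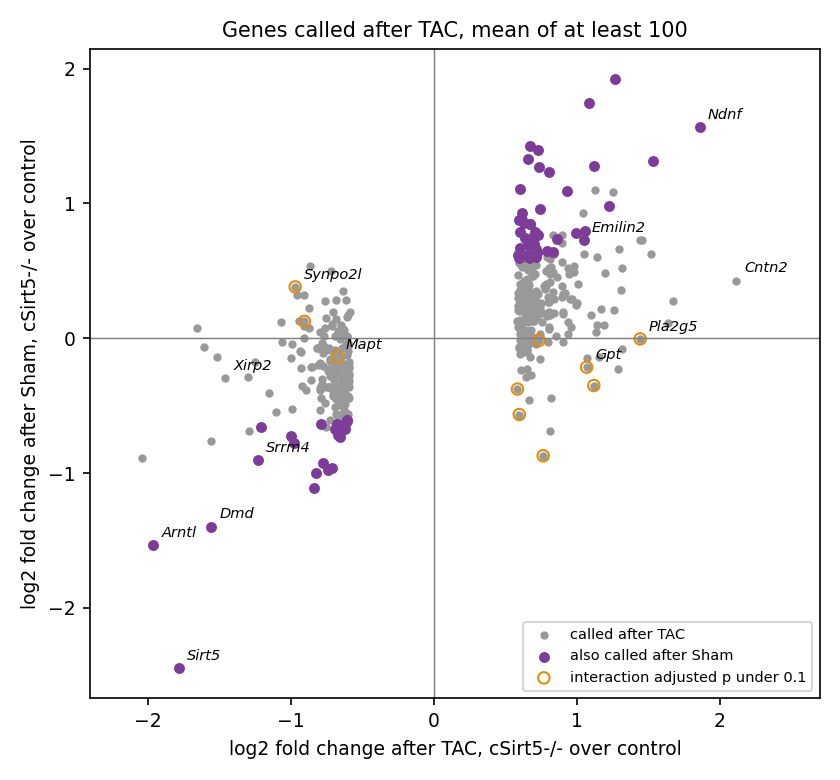
Log2 fold change of cSirt5-/- over control hearts after TAC (horizontal axis) and after Sham (vertical axis) for called genes with a mean of at least 100. Purple points were also called after Sham in the same direction, and orange rings mark genes with an interaction adjusted p under 0.1. Ndnf lies at 1.86 and 1.57, Dmd at −1.55 and −1.40, and Pla2g5 at 1.44 and −0.005.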

How the data were processed

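RNA was sequenced from whole hearts of 24 mice, 6 in each of 4 groups. The authors trimmed reads with Trim Galore, aligned them to mm39 with STAR and normalized counts with DESeq2 size factors, keeping genes with at least 10 reads in total. The counting program is not given in the sources used here. The deposited table holds the normalized counts, used here as a signal for each gene in each library. Dividing out the size factors gave whole reads for 100% of values (within 1e-06), and these reads gave the depths. The authors' columns comparing TAC with Sham were not used.

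The members and the gene lists were chosen with earlier results of these data known. limma 3.58.1 (R 4.3.3, trended variance) was fitted to log2(normalized count + 1) of all 24 libraries with 4 group means, and p-values were adjusted over 24239 genes by Benjamini-Hochberg. Tables were handled in Python 3.11.15. The fit was tested on simulated data. Alternatives were edgeR 4.0.16 and DESeq2 1.42.0 on the recovered reads, other pseudocounts and filters, TMM scaling, array weights, subsets of libraries, library set, animal-number range or replicate number in the model, and removal of a lowess trend of each library's values on spliced length, taken from GENCODE M39 for 99.2% of genes. The last, and leaving out control TAC replicates 1 and 2, were chosen after seeing the data.

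Genes named were Sirt5, those the study names in purine, pyrimidine and antioxidant metabolism, the 15 largest called changes in each direction among genes whose mean reached 100, the 10 smallest adjusted p in each direction among such genes called also without cSirt5-/- TAC replicates 2 and 4, and up to 4 called members of each list. The conduction list, the called genes with an interaction and Nr1d1, Nfil3, Nrf1, Ppargc1a, Nppa, Nppb, Myh7 and Acta1 were chosen after their values were seen. Some genes these rules name are not reported here. Hearts carry separate animal numbers, so p-values measure the spread between animals. Reads were counted without a stated strand, so how far a gene's count holds reads of its antisense partner cannot be told.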

Additional observations from a re-analysis of the deposited data

Results flagged for a closer look

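In 31 of 296 groups of 6 hearts the highest or the lowest value stood apart from the other 5, where chance alone gives about 1 in 20. The library labelled cSirt5-/- TAC replicate 4 held 17 of the 29 such gene values. Against the other cSirt5-/- TAC hearts it had the highest Aprt (569.8 normalized counts), Gpx1 (3653), Gpx4 (13736), Lgals3 (509.7), Gm30735 (374.6), Lcn2 (1126), Lad1 (372.5), Cntn2 (707), Uqcr10 (9634), Atp5d (18969), Nt5c (424.2), Rpl36a (2356), Nkx2-5 (2651) and Cpne5 (118.2), and the lowest Ttn (67835), Utrn (1123) and Prox1 (619.4). Its difference between long and short transcripts also stood apart, at −0.935 on the log2 scale.

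Of the other cSirt5-/- TAC hearts, replicate 6 stood apart in Slc24a2 (90.4 normalized counts) and replicate 1 in Irx5 (129.3). Control TAC replicate 2 stood apart in Hprt (1292), Ttn (264533), Rpl36a (519.5) and its ribosomal RNA share (23.391%), and control replicate 5 in Lgals3 (440.4), Lcn2 (242.5), Golga4 (23583) and Nrap (35105). Single values also stood apart in control replicate 3 (Nav3, 471.9), control replicate 4 (Emilin2, 947.9) and control replicate 6 (Plac8, 24.9).

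The genotype effect after TAC differed from that after Sham by the interaction term of limma in 12 called genes. The log2 difference was 2.489 in Drd2, 1.877 in Gm31663, 1.638 in Prr33, 1.470 in Fbp2, 1.449 in Pla2g5, 1.285 in Gpt, 1.165 in Slc26a6, 0.963 in Snrpn, 0.754 in Itgb1bp2, −0.533 in Mapt, −1.028 in Pde8a and −1.350 in Synpo2l.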

How the results depend on the processing

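The 787 calls became 424 with only the TAC libraries fitted, 282 without the libraries labelled cSirt5-/- TAC replicates 2 and 4, 480 among genes with a mean of at least 100, 511 with array quality weights, 24 in library set 1 alone, 522 with the length trend removed and 215 with that and both libraries left out. Leaving out 1 heart gave 408 (cSirt5-/- replicate 4) to 1024 (cSirt5-/- replicate 1) calls. Sirt5 ranged over −2.21 to −1.57 in these fits, and was not called in set 1 (−2.51) or set 2 (−1.42) alone. edgeR called 824 genes (649 of the 787) and DESeq2 811 (597), and 561 were called by all 3 tools. Of the 117 named called genes other than Sirt5, 58 stayed called without replicates 2 and 4. Some of these genes were named because they were also called without both libraries. The count of 58 therefore follows in part from that choice. Of all 787 calls, 250 (31.8%) stayed called without both. Among the 117 named genes, 71 stayed called without replicate 4, 61 with the length trend removed and 93 without control replicates 1 and 2.

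No label ties hearts of the same replicate number, and their deviations correlated at −0.043 to 0.462, over 0.1 in 4 of 6 pairs. Of the 6 cSirt5-/- hearts 3 correlated best with their own number, a hint from the data, not the design. With the replicate block 492 genes were called, and 85 of the 117 named genes. Called genes whose sign turned, from a cause that was not tested, were Ttn with the length trend removed (0.016) and Asns in set 1 (−0.147). Of 62 list medians 3 changed sign without replicates 2 and 4, 3 with the length trend removed, 5 with both, 8 in set 1, 8 in set 2, 5 without control replicates 1 and 2, 2 without cSirt5-/- replicate 4 and 1 with TMM scaling. Collagens went to −0.457 and cell cycle genes to −0.185 in set 1. Those that turned by more than the mean SD of the list across hearts were the proteasome with the length trend removed (−0.065, and −0.040 also without replicates 2 and 4), T and NK cell markers under that last setting (−0.091), ketone body use (−0.173) and calcium handling (−0.098) in set 2, and purine nucleotide-to-nucleoside genes (0.183), biogenesis regulators (0.031), adrenergic and cAMP signalling (0.128) and adipocyte markers (−0.730) in set 1.

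The main limits are the 2 libraries whose Sirt5 goes against their label, the 1 library (replicate 4) that widens the spread, animal-number ranges that differ between the groups, and whole-heart RNA, in which the share of each cell type is not measured.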
